A study of Mus musculus with 4 samples.

Results

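Identical intervals are the stretches of mouse transcripts that the authors listed as m6A sites with the same chromosome, start and end in embryonic pancreas with Mettl3 deleted in its Pdx1-positive progenitor cells (KO) and in wild-type pancreas (WT). They were chosen by the start, end and length of the listed sites: each WT site shorter than 1000 bp entered where a KO site had exactly the same coordinates (mm10). There were 935 of them among 3937 KO and 10514 WT sites, in 771 genes. They made up 27.2% of the 3433 KO sites under 1000 bp (exact binomial 95% interval 25.8 to 28.8%) and 10.7% of the 8746 WT sites under 1000 bp (10.1 to 11.4%). These shares come from the rule itself and are descriptions. Whether the listed ends are those of the called peak or of an annotated feature that holds it is stated in no source used here. In the second case the same start and end would show only that both tables list a site in that feature. Of the 1073 WT sites under 1000 bp that a KO site overlapped, 87.1% were identical.

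The KO pancreata lacked Mettl3 in Pdx1-positive pancreatic progenitor cells, and both genotypes were dissected at E15.5. Each genotype had 1 MeRIP library, in which an m6A antibody captured RNA fragments of about 200 nt, and 1 input library of uncaptured RNA. The alleles, the driver of the deletion, the number of embryos and whether tissue was pooled are not given in the labels, which call every library pancreatic cell. Cells outside the Pdx1 lineage keep the gene, and the lists cannot separate the cells a site came from. With a single library of each kind per genotype there was no replicate error, so no test between genotypes was made.

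N6-methyladenosine, or m6A, is written onto messenger RNA by a complex whose catalytic subunit is Mettl3 and whose other parts include Mettl14 and Wtap. It is placed mostly at adenosines within a short consensus with GGAC at its core, often in long exons and near stop codons. Reader proteins that recognise it alter the splicing, translation and decay of the transcript. An antibody-based assay reports the fragment that carries the mark, not the modified base.

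Sequence could be shown for the identical intervals that begin at an annotated transcription start, because the first 50 transcribed bases of genes were at hand (RefSeq, GRCm38.p6). Of 43 such intervals of at least 50 bp, 8 held the letters GGAC in those bases on the transcript strand (18.6%, exact 95% interval 8.39 to 33.4%). The letters were found in 46 of 268 other WT sites under 1000 bp that begin at a start (17.2%) and in 18.9% of all 32851 start windows, so the share in the identical intervals lay at the level of starts in general. Counting either strand gave 14 of 43 (32.6%), against 33.3% of all windows. The longer GGACT, which contains GGAC, was present in 2 of the 43 (4.65%), against 5.76% of all windows. The 8 stretches are printed because the letters GGAC lie there inside an interval held in both genotypes. Only these letters were matched, not a full m6A consensus, and the next base is G in Ppp1r13b, Edf1 and Ccdc9. Each is 30 bases long and 5′ to 3′ on the transcript strand, with 1 match in capitals (GGACT where it occurs, otherwise GGAC). Prkaca also begins with GGAC, left in lower case:
Prkaca (chr8:83972978-83973007, + strand): ggacagaGGACTtgggctgaggctcccccg
Golim4 (chr3:75956920-75956949, - strand): GGACTtcctcccggaatcccgttggccatg
Ppp1r13b (chr12:111908026-111908055, - strand): cggcggctgagGGACggcgacgcggcacgc
Dynlt1f (chr17:6655910-6655939, - strand): tttggtggagGGACcgggccctagagcgta
Edf1 (chr2:25557866-25557895, + strand): ggaggcgacgaagGGACgtcgcgtcgccgc
Fads2 (chr19:10101474-10101503, - strand): gagGGACcgtcggtgttgcgagccgcgggc
Anapc5 (chr5:122821295-122821324, - strand): cggggtgggagagGGACactgaggcccccg
Ccdc9 (chr7:16286746-16286775, - strand): cgagtgaggcccgggagctgtGGACgcgaa

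The intervals around these starts differed widely in the authors' fold enrichment, the ratio of MeRIP over input at the peak. In Ppp1r13b, which encodes a p53-binding protein of the ASPP family, the interval of 194 bp had 10.61-fold in KO and 9.57-fold in WT. In Prkaca, the catalytic subunit of protein kinase A, the interval of 255 bp had 6.66-fold in KO and 6.98-fold in WT. In Golim4, a Golgi membrane protein gene, the 838 bp interval had 4.54-fold in KO and 7.68-fold in WT. A match to the letters does not locate the modified base, and starts without them may carry the core further inside the interval, where no sequence was read. A different kind of overlap was found in Arglu1, a splicing-associated gene. Its identical interval on chromosome 8, 8689977 to 8690537, covers the whole 70-base hairpin of mmu-miR-7654, whose mature 3p strand is printed here with its seed in capitals as in RefSeq (chr8:8690093-8690114, - strand).
mmu-miR-7654-3p: cGAGCGGGagcgcgccucgucc

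The values the authors' caller gave to the identical intervals are summarised by medians within each table. The median fold enrichment was 5.98 in KO (quartiles 4.99 and 7.33) and 8.03 in WT (6.53 and 9.97). Over all sites under 1000 bp the upper quartile of fold enrichment was 7.58 in KO and 9.7 in WT. Among the identical intervals fold enrichment reached at least 10-fold in 49 of the 935 in KO (5.24%) and in 231 in WT (24.7%). The median score, minus 10 times log10 of the caller's p-value, was 74.3 in KO and 93.3 in WT. The false discovery rate was at least 45.93% for every identical interval in KO, with a median of 48.5%, so none of them met a limit of 20% there. All 3433 KO sites under 1000 bp had a minimum of 45.92% and the same median, so this is not particular to the identical intervals. In WT the rate of the identical intervals ran from 9.75 to 100% with a median of 10.8%, against 10.6% for all WT sites under 1000 bp. The 2 tables were called separately, so no ratio is formed between them. Across the 935 intervals the KO and WT fold enrichments had a Pearson r of 0.34 and a Spearman rho of 0.38, given as a description, since all points of an axis share 1 MeRIP and 1 input library.

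**Figure D1:**
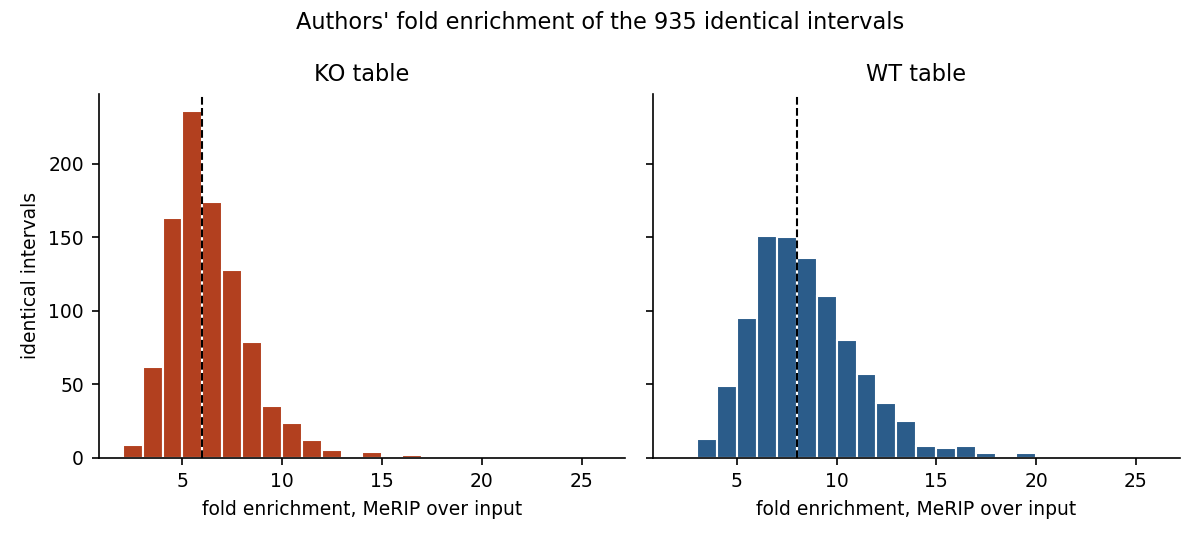
Histograms of the authors' fold enrichment (MeRIP over input, 1-fold bins) of the 935 identical intervals, in the KO table on the left and in the WT table on the right, with dashed lines at the medians. The KO median is 5.98 and the WT median 8.03, and the right tail past 10-fold holds 49 intervals in KO and 231 in WT. Over all sites under 1000 bp the upper quartile is 7.58 in KO and 9.7 in WT.

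Set against the sites with no identical partner, the identical intervals had a higher score and much the same fold enrichment in WT. Their median score in WT was 93.3, against 81.9 in the other 7811 WT sites under 1000 bp, while the median fold enrichment was 8.03 against 8.05. In KO the median score was 74.3, against 67.0 in the other 2498 sites under 1000 bp, and the median fold enrichment was 5.98 against 6.36. When WT sites were cut by score into 4 groups of equal size, 14.6% of the highest group were identical intervals (exact 95% interval 13.1 to 16.1%), and 7.87% of the lowest (6.77 to 9.08%). The same shares by KO score were 35.9% and 19.1%. By KO fold enrichment the order ran the other way, with 24.0% in the highest group and 34.1% in the lowest. The intervals around these shares cover counting error over sites only, and sites of a gene are not independent.

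Length entered the rule through its upper limit. The median length was 168 bp for the identical intervals and 176 bp for the other WT sites under 1000 bp. Among WT sites of up to 250 bp 12.0% were identical (11.2 to 12.9%), against 7.56% of those over 250 bp (6.58 to 8.64%). The largest share was 13.1%, at 201 to 250 bp, and the smallest was 5.29%, at 701 to 999 bp. A further 138 WT sites under 1000 bp were overlapped by a KO site without being identical, and 7673 were not overlapped. The shortest identical intervals were 32 bp in Ccdc124, 33 bp in Dmbt1 and 36 bp in Asph. Just inside the limit lay those of Dhx9 (996 bp, 5.94-fold in KO and 6.86-fold in WT), Usp53 (995 bp, 9.44 and 8.62) and Septin5 (986 bp, 5.58 and 12.38). Just outside it lay Hspb8 (1000 bp, 6.39-fold in KO and 6.03-fold in WT), Aebp1 (1004 bp, 6.53 and 5.38) and Nfatc3 (1005 bp, 4.21 and 9.03), among 84 identical intervals of at least 1000 bp.

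**Figure D2:**
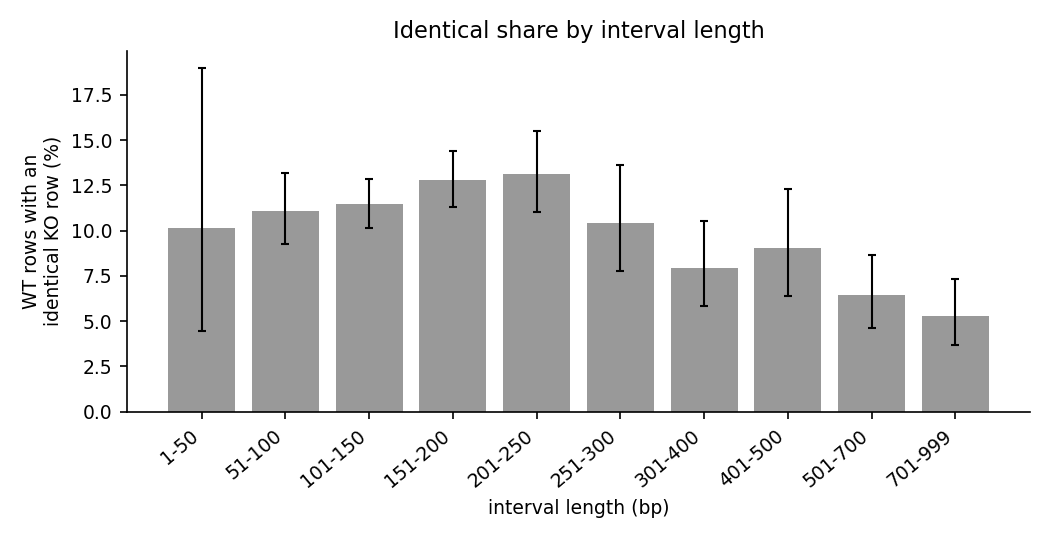
Share of WT sites under 1000 bp that have an identical KO site (y axis, percent) by interval length in bp (x axis), with exact binomial 95% intervals as bars. The share is 13.1% at 201 to 250 bp and 5.29% at 701 to 999 bp.

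The position along the gene could be computed for 746 of the 935 identical intervals and 6236 of the other 7811 WT sites under 1000 bp, those with both a gene span and a strand in the tables used. The exact intervals of the 2 sets did not overlap in the final 20% of the gene span, which was not tested further. Midpoints of identical intervals fell there in 22.9% of cases (exact 95% interval 20 to 26.1%), against 28.8% (27.6 to 29.9%) of the other sites. In the first 20% of the gene span the shares were 18.9% (16.2 to 21.9%) and 15.8% (14.9 to 16.7%). An annotated start coincided with the 5′ end of 42 identical intervals, 5.63%, and of 4.30% of the other sites. In 2 more identical intervals both ends coincided with those of the gene. The 3′ end of the gene coincided with the interval's end in 2.68% of identical intervals and 3.24% of the others. Exon, intron and UTR limits were not used here, and gene spans include introns.

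**Figure D3:**
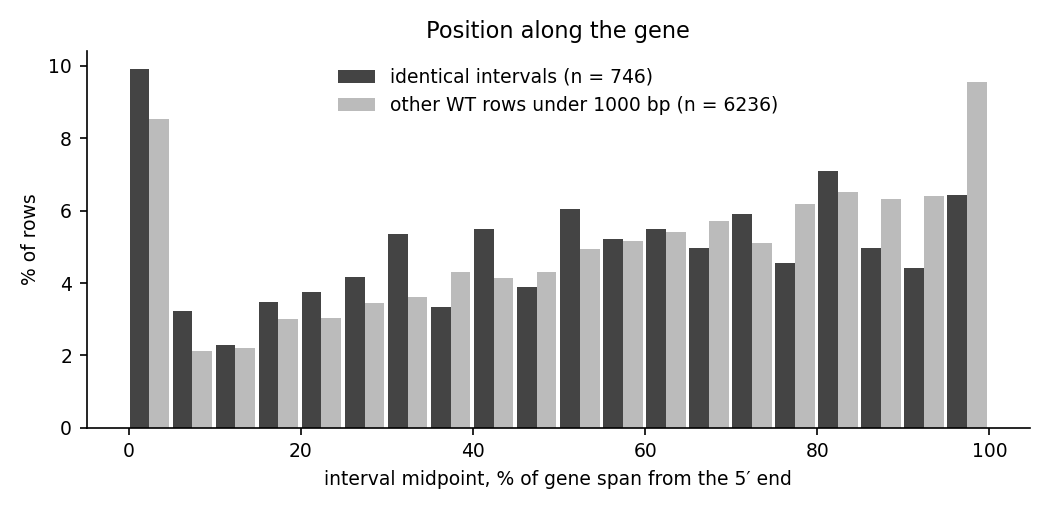
Distribution of interval midpoints along the gene (x axis, percent of the gene span from the 5′ end, bins of 5%) for identical intervals (dark, n = 746) and other WT sites under 1000 bp (light, n = 6236), as percent of each set. In the final 20% of the gene, the share is 22.9% for identical intervals and 28.8% for the other sites.

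The share of WT sites with an identical partner ran by chromosome from 7.49% on chromosome X (20 of 267) to 14.9% on chromosome 8 (62 of 416, exact 95% interval 11.6 to 18.7%). Chromosome 12 followed with 14.0% (10.9 to 17.6%), and on chromosome Y 0 of 5 sites was identical. The gene named for an identical interval was the same in both tables in all 935 cases.

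Most genes with an identical interval had a single one. Of the 771 genes 645 had 1 identical interval, 98 had 2 and 28 had 3 or more. The same genes had 1453 KO sites and 2822 WT sites in all, so the identical intervals were a part of what was listed for them. In 442 genes every KO site was an identical interval, and in 180 every WT site was. Genes of this set with only 1 site in a table meet the condition for that table by definition. In 136 genes nothing but identical intervals was listed in either genotype, 118 of which had 1 site in each table. Genes with more WT sites under 1000 bp were represented in larger shares. The share of genes was 8.49% for the 2250 genes with 1 such site, 19.6% for the 857 with 2, 32.8% for the 844 with 3 to 5 and 59.0% for the 229 with 6 or more, beside 18.4% of all 4180 genes. The share per site moved less, with 8.49%, 11.3%, 11.2% and 12.0% in the same order. In 144 genes 1 of exactly 2 WT sites was identical. It was the site with the higher WT fold enrichment in 75 of them. Of 175 genes with 1 identical interval and exactly 2 KO sites, it had the higher KO fold enrichment in 87 and the higher KO score in 105.

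Utrn held the most intervals. It encodes utrophin, a large relative of dystrophin that links the actin cytoskeleton to the membrane. It had 6 identical intervals among 9 KO sites and 26 WT sites, spread over a gene of 487.7 kb. Their fold enrichment ran from 4.32 to 5.92 in KO and from 4.94 to 11.60 in WT. The highest KO value, 5.92, belonged to chromosome 10, 12405854 to 12406094, which had 7.10-fold in WT. Syne2, which encodes the nuclear envelope protein nesprin-2, had 5 among 8 KO and 26 WT sites, with 6.43 to 9.36-fold in KO and 7.70 to 19.37-fold in WT. Its interval on chromosome 12, 75989074 to 75989256, held the highest value in both tables.

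A further 5 genes held 4 intervals each. Tcea1, the gene of the transcription elongation factor TFIIS, had 4 KO sites and 5 WT sites, and all 4 KO sites were identical intervals. In genome order these had 7.05, 8.74, 8.48 and 7.17-fold in KO and 6.46, 9.43, 5.86 and 9.19-fold in WT. The interval with 8.74-fold had a KO false discovery rate of 100%. Cdc73, which encodes a subunit of the Paf1 elongation complex, also had all of its 4 KO sites in the set, among 8 WT sites. The Cdc73 interval at the gene start, chromosome 1, 143702494 to 143702893, had 9.69-fold in KO and 7.87-fold in WT, with a KO false discovery rate of 100%. Both of these genes act in elongation by RNA polymerase II. Fn1, the fibronectin gene, held 4 neighbouring intervals between 71605885 and 71609682 on chromosome 1. In genome order they had 5.83, 5.62, 6.80 and 6.40-fold in KO and 7.32, 8.98, 7.38 and 8.54-fold in WT, out of 6 KO and 9 WT sites. No other WT or KO site of Fn1 lay between them. Huwe1, a HECT-type ubiquitin ligase gene on chromosome X, held 4 of 5 KO sites among 9 WT sites (4.19 to 6.07-fold in KO and 6.53 to 10.86-fold in WT). Ncor1, the gene of a nuclear receptor corepressor that works with histone deacetylases, held 4 of 8 KO sites among 13 WT sites (4.33 to 7.58-fold in KO and 4.59 to 7.89-fold in WT).

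**Figure D4:**
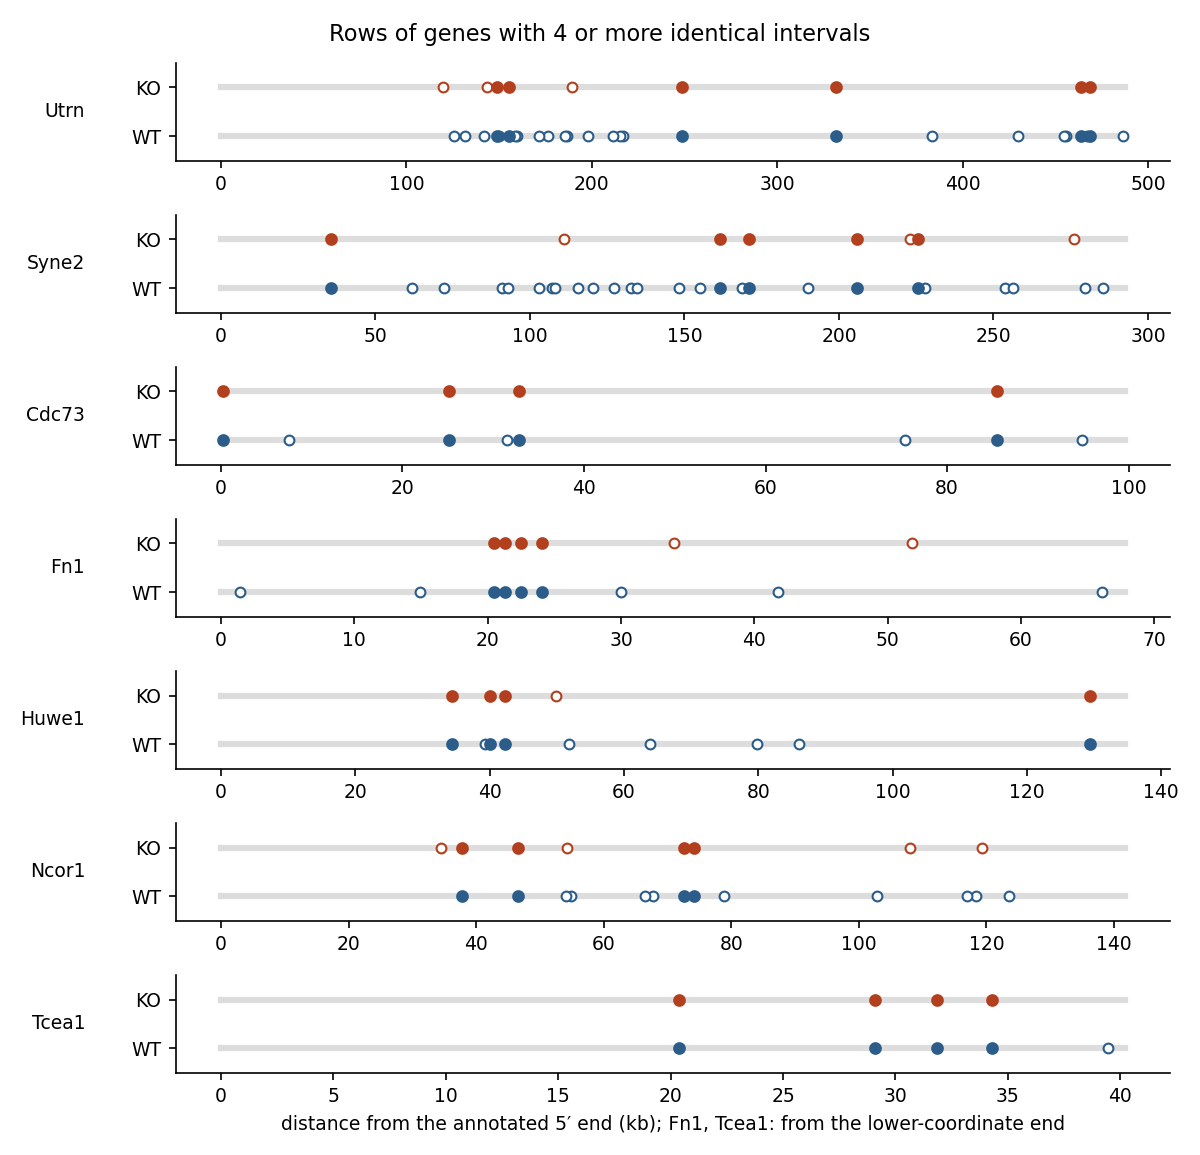
All listed sites of the 7 genes with at least 4 identical intervals, with KO above WT, by distance in kb from the annotated 5′ end of the gene (from the lower-coordinate end for Fn1 and Tcea1). Filled points are identical intervals and open points are other sites of any length. Each filled KO point stands over a filled WT point, and the 4 Fn1 intervals lie side by side.

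The 21 genes with 3 identical intervals covered varied functions. Vps35, the core subunit of the retromer that returns cargo from endosomes, was listed with 3 sites in each genotype, and all of them were identical (5.81 to 7.27-fold in KO and 6.28 to 12.88-fold in WT). All 3 KO sites were identical intervals in Eif3l, a translation initiation factor subunit, Kars, the lysyl-tRNA synthetase, and Ndufs4, a subunit of respiratory complex I. So were those of Rad21, the cohesin subunit, Ptn, the secreted growth factor pleiotrophin, and Ppp1r13b. Fam149a and Serpina6, which encodes the corticosteroid-binding globulin of plasma, shared this feature. Further genes with 3 were Smc5 (4 KO and 8 WT sites), Smarca5 (4 and 7), which encodes an ISWI chromatin remodelling ATPase, and the receptor phosphatase gene Ptprf (4 and 4). Akap9 (4 and 19) and Pcm1 (4 and 11) encode scaffolds of the centrosome. Birc6 (5 and 9) and Mycbp2 (6 and 10) act in ubiquitin transfer, Glg1 (4 and 6) encodes a Golgi protein, and Dcaf6 (5 and 4) and Bicc1 (4 and 11) completed the set together with Srp54b and Amy1. The intervals of Srp54b (5 and 12) and Amy1 (3 and 4) are uncertain, since reads may come from near-identical copies.

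The highest KO fold enrichment of an identical interval was in Plac9a, a small secreted-protein gene with a close copy, with 25.62-fold in KO and 6.87-fold in WT. Amy1, an amylase gene, followed with 17.33-fold in KO and 12.78-fold in WT. Ttc27 (16.15-fold in KO and 11.74-fold in WT) and Aco1, the cytosolic aconitase that doubles as iron regulatory protein (16.06 and 11.65), came next. These 4 KO sites had a false discovery rate of 100%. Rbm6, an RNA-binding protein gene, had 14.86-fold in KO and 9.72-fold in WT. Kdm4c, a histone H3 lysine demethylase gene, had 14.20-fold in KO and 10.15-fold in WT, the first in this order with a KO false discovery rate under 70%, at 63.1%. Dmbt1 (14.20-fold in KO and 12.73-fold in WT), the apoptosome gene Apaf1 (12.62 and 11.92), the matrix-associated gene Smoc2 (12.57 and 9.12) and the homeobox gene Pbx2 (12.38 and 9.13) completed the 10 highest, with predicted genes passed over. The KO false discovery rate was 76.8% for Dmbt1, 76.6% for Apaf1, 59.0% for Smoc2 and 100% for Pbx2.

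The highest WT values belonged to other genes. Ccny, a membrane-associated cyclin gene, had 8.93-fold in KO and 23.30-fold in WT. Samhd1, which encodes a dNTP hydrolase, had 5.35-fold in KO and 21.84-fold in WT. Vps41, a subunit of the HOPS tethering complex, had 7.44-fold in KO and 19.55-fold in WT. Syne2 (9.36-fold in KO and 19.37-fold in WT), Cep76 (4.52 and 18.63), Scamp1 (7.21 and 17.60), Helz (11.43 and 17.57), Etl4 (5.51 and 17.16) and Cdca7 (7.71 and 16.49) followed. None of these was among the 10 highest in KO, and predicted genes were passed over here too. The WT false discovery rate of these sites ran from 12.3% in Scamp1 to 68.55% in Cep76, with 66.9% in Ccny. The WT median over the identical intervals was 10.8%. Of the 935 intervals 10 lay in 9 predicted genes or pseudogenes, which were not named.

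Gene families and pathways were compared through the share of their WT sites under 1000 bp that had an identical KO site, read against 10.7% of all such sites. Of 34 lists, 2 had an exact 95% interval that did not include the share of all sites. These were the mesenchyme genes and the overlapping list of matrix proteins and integrins, which have 6 of their genes with identical intervals in common. Counted by genes, beside 18.4% of all genes, 5 lists had such an interval. They were the same 2 lists, with 10 of 18 (55.6%, 30.8 to 78.5%) and 17 of 40 genes (42.5%, 27 to 59.1%), and 3 more. Chromatin regulators had 32 of 94 genes (34.0%, 24.6 to 44.5%), cohesin and SMC genes 8 of 16 (50%, 24.7 to 75.3%) and centrosome and cilium genes 12 of 33 (36.4%, 20.4 to 54.9%). Site shares of these 3 had intervals that included the share of all sites. For all 5 lists, the gene share goes with the number of WT sites per gene given above. The intervals were not adjusted for the number of lists. A bulk library cannot tell fewer cells of a type from less RNA per cell, which bears on every list of cell type genes.

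Among mesenchyme genes 15 of 61 WT sites were identical, 24.6% (14.5 to 37.3%), in 10 of 18 genes with a WT site under 1000 bp. Their median fold enrichment was 5.62 in KO and 7.71 in WT. Without Fn1, an alternative chosen after seeing the data, the list had 11 of 52 (21.2%, 11.1 to 34.7%). Pdgfra, the receptor for platelet-derived growth factor that marks fibroblasts, held 2 intervals, and both of its KO sites were among them. The stronger, on chromosome 5, 75163535 to 75163852, had 7.27-fold in KO and 7.71-fold in WT. The fibrillin genes Fbn1 and Fbn2 each held 1 interval, and both intervals were 126 bp long. Fbn1 had 6.98-fold in KO and 9.48-fold in WT there, and Fbn2 had 7.61 and 10.92. Col5a1 held 2 intervals, and Col5a2, Col6a3, Dcn, Lum and Postn held 1 each, all of them genes of secreted matrix components.

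The wider list of matrix proteins and integrins had 22 of 124 WT sites identical, 17.7% (11.5 to 25.6%), in 17 of 40 genes, and 15.7% without Fn1 (9.55 to 23.6%), an interval that includes the share of all sites. It held the basement membrane genes Lama4, Lamb1, Lamc1 and Nid1, of which Nid1 held 2 intervals. Smoc2, already named, had the highest KO value of the list. Adamts9, a secreted metalloprotease gene, had 8.24-fold in KO and 11.54-fold in WT, and Loxl2, a lysyl oxidase gene for collagen crosslinking, 7.43 and 9.64. Itgb5 was the integrin subunit gene with an identical interval. Where both tables were limited to a false discovery rate of 50%, 7 of 59 WT sites of the mesenchyme list (11.9%, 4.91 to 22.9%) and 13 of 123 of this list (10.6%, 5.75 to 17.4%) were identical, and both intervals then included the share of all sites, 7.0%.

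For the 4 lists of the pancreatic epithelium the exact intervals all included the share of all sites. Each of these lists had only 20 to 27 sites, so the intervals were wide. The progenitor regulators had 2 of 20 sites identical (10%, 1.23 to 31.7%), in 2 of 10 genes. Foxp1, a forkhead factor gene, had 7.69-fold in KO and 10-fold in WT, and Nkx6-1, a homeobox factor of progenitors and beta cells, had 6.02 and 5.96 in its only site. The endocrine progenitor and islet genes had 2 of 27 sites (7.41%, 0.910 to 24.3%), in 2 of 13 genes. The glucagon gene Gcg had 4.03-fold in KO and 8.0-fold in WT at an interval of 455 bp, where the WT false discovery rate was 100%. Scg3, a granule protein gene, had 5.38-fold in KO and 5.25-fold in WT, in its only KO site and 1 of its 8 WT sites. In the duct and trunk list 5 of 27 sites were identical (18.5%, 6.30 to 38.1%). Bicc1, an RNA-binding protein gene whose loss gives cystic ducts in mice, held 3, the highest with 6.64-fold in KO and 10-fold in WT. The keratin gene Krt7 had 5.85-fold in KO and 11.74-fold in WT, and Prom1 6.86 and 6.11.

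Acinar genes had 5 of 22 sites identical (22.7%, 7.82 to 45.4%), 3 of them in Amy1 and 1 each in Amy2a5 and Dmbt1. Amy2a5, the pancreatic amylase gene, had 4.30-fold in KO and 5.65-fold in WT. All 5 had a KO false discovery rate above 50%, so with that limit none of 18 sites of the list remained. The amylase copies can share reads. Of the defining markers, a KO site was listed for 3 of 7 acinar, 2 of 10 endocrine, 2 of 7 duct and 5 of 8 mesenchyme genes. A WT site was listed for 2, 5, 5 and 5 of them in that order, and sites in both tables for 1, 2, 2 and 4. Sites in both tables were listed for 1 of 4 endothelial, 1 of 4 blood and 1 of 5 neural markers. Transcript levels are not part of the lists, so these counts do not measure cell types, and their part in the shares above was not tested. Of the other cell type lists, Nrp1 held 2 intervals in the endothelial list and the erythroid heme synthesis gene Alas2 held 1 (5.27-fold in KO and 12.21-fold in WT).

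Of the 12 genes with a WT site under 1000 bp in the list of m6A writers, erasers and readers, only Wtap held an interval. Wtap anchors the writer complex in nuclear speckles. It had 5.31-fold in KO and 9.79-fold in WT at chromosome 17, 12980822 to 12980949. That was 1 of 26 WT sites of the list under 1000 bp, 3.85% (0.0973 to 19.6%).

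Chromatin regulators supplied the largest number of identical intervals of the 34 lists, 42 of 344 WT sites (12.2%, 8.94 to 16.1%) in 32 of 94 genes. Kdm4c, Ncor1 and Smarca5 were described above. Ncoa5, a nuclear receptor coregulator gene, had 2 sites in each genotype, and both were identical, the stronger in KO with 11.67-fold in KO and 10.57-fold in WT. Smchd1, needed for X inactivation, had 11.21-fold in KO and 7.18-fold in WT, and Bptf, the largest subunit of the NURF remodeller, 8.81 and 11.54. The SWI/SNF family was represented by Smarca2, Smarca4, Smarcc1 and Smarce1, of which Smarca4 and Smarcc1 held 2 intervals each. The acetyltransferase genes Ep300 (2 intervals) and Crebbp (1) are close relatives of each other. Dnmt1, which copies DNA methylation after replication, Hdac2 and Nsd1 held 1 each.

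Cohesin and SMC genes, which fold and hold chromosomes together, had 14 of 90 sites identical (15.6%, 8.77 to 24.7%) in 8 of 16 genes. Rad21, already described, and Smc5 held 3 each and Pds5a and Smc2 2 each. The partner of Smc5, Smc6, held 1 with 7.83-fold in KO and 9.0-fold in WT. The condensin II gene Ncapd3 had 8.89-fold in KO and 8.55-fold in WT, and Stag2 and Ncaph held 1 interval each. Centrosome and cilium genes had 17 of 113 (15.0%, 9.01 to 23.0%). Arl13b, a GTPase of the ciliary membrane, had 11.90-fold in KO and 15.57-fold in WT. Cep76 held both of its 2 sites, and Cntrl had 9.30-fold in KO and 8.36-fold in WT at an interval that begins at an annotated start.

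The ubiquitin list, made of ligases, conjugating enzymes and deubiquitinases, had 37 of 300 sites identical (12.3%, 8.83 to 16.6%) in 27 of 109 genes. Besides Huwe1, it held the HECT ligase genes Herc1 (2 intervals, the stronger in KO with 9.85-fold in KO and 13.10-fold in WT), Ube3a and Itch. The deubiquitinase gene Usp40 had 9.55-fold in KO and 8.76-fold in WT, Usp53 had 9.44 and 8.62, and Usp8 held 2 intervals. The KO false discovery rate was 100% for Usp53 and for the stronger Herc1 interval.

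For genes of RNA metabolism and translation the exact intervals included the share of all sites. RNA helicases, splicing factors and RNA-binding proteins had 28 of 231 identical (12.1%, 8.21 to 17.0%). Of these sites 13 lay in 10 DEAD-box or DEAH-box helicase genes, such as Dhx37, which held both of its KO sites, the stronger with 10.33-fold in KO and 8.36-fold in WT. Zc3h7b (9.29 and 5.66) and Zc3h18 (8.75 and 12.10) are zinc finger RNA-binding genes. Translation initiation factors and tRNA synthetases had 18 of 133 (13.5%, 8.22 to 20.5%). Eif4g3, a scaffold of cap-dependent initiation, had 9.06-fold in KO and 9.52-fold in WT. The synthetase genes Iars (7.94 and 8.79), Gars (7.21 and 15.62) and Dars joined Kars. Ribosomal protein genes had 12 of 78 (15.4%, 8.21 to 25.3%), with 5 genes of the mitochondrial and 4 of the cytosolic ribosome. Mrps35 had 7.08-fold in KO and 5.0-fold in WT. Rpl29 had 5.81 and 8.49 with a false discovery rate of 100% in both tables, and cytosolic ribosomal protein genes have many processed copies that can share reads.

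In the traffic list, 22 of 224 sites of Rab, sorting nexin, Vps and coat genes were identical (9.82%, 6.26 to 14.5%). Vps35 supplied 3 and the exocytic GTPase gene Rab10 2. Ap2a1, a subunit of the clathrin adaptor of the plasma membrane, had 8.57-fold in KO and 9.58-fold in WT, Snx16 8.19 and 15.81, Copb1 8.12 and 9.58 and Snx6 8.0 and 5.88. Motor genes had 13 of 131 (9.92%, 5.39 to 16.4%). Myh14, a non-muscle myosin heavy chain gene, held 2 intervals, the stronger in KO with 9.17-fold in KO and 7.04-fold in WT, while Myo10 (7.99 and 6.76) and Myo9b (7.27 and 10.40) held 1. Dynlt1f, whose start is printed above, had 9.55 and 9.27 and belongs to a cluster of near-identical genes.

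Several families had few sites. Zinc finger genes of the Zfp type had 6 of 66 (9.09%, 3.41 to 18.7%), led by Zfp451 with 12.27-fold in KO and 6.82-fold in WT. Solute carriers had 6 of 47 (12.8%, 4.83 to 25.7%), among them the bicarbonate cotransporter gene Slc4a4, whose only site in each genotype was the same 507 bp (7.31-fold in KO and 7.97-fold in WT). Chaperones had 8 of 66 (12.1%), with 8.34-fold in KO and 11.73-fold in WT for Dnajc10, an ER disulfide reductase gene. MAP kinase genes had 3 of 38 (7.89%), of which Map3k3 held 2. Tmem genes had 1 of 23 (4.35%), in Tmem184b. Guidance genes had 4 of 34 (11.8%), in the neuropilin gene Nrp1 (9.53-fold in KO and 9.87-fold in WT at the stronger of 2) and the Eph receptor genes Epha3 (5.73 and 6.23) and Ephb2 (4.71 and 8.15). Cadherins had 4 of 16, in Cdh3, Pcdh9 and Fat1.

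In the signalling lists the numbers were small and each interval was wide. The TGF-beta and BMP list had 4 of 21 sites identical (19.0%, 5.45 to 41.9%), each in a different step of the pathway. The ligand gene Bmp7 had 5.29-fold in KO and 8.15-fold in WT, and the type I receptor gene Bmpr1a 4.85 and 7.55. The signal transducer gene Smad3 had 8.29-fold in KO and 10.37-fold in WT. The endocytic adaptor gene Dab2 had 11.09 and 14.55 with a KO false discovery rate of 100%. The Wnt list had 5 of 33 (15.2%, 5.11 to 31.9%). Wls, which carries Wnt ligands to the cell surface, had 9.03-fold in KO and 5.40-fold in WT. The coreceptor gene Lrp5 had 8.07 and 10.48, Dvl3 5.63 and 6.92, and Btrc, a ubiquitin ligase subunit that targets beta-catenin, 6.82 and 7.73. The transcription factor gene Tcf7l1 had 8.75-fold in KO and 8.10-fold in WT at its only site. Of these 5 intervals 1 had a false discovery rate of at most 50% in both tables.

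The Hippo list had 5 of 35 (14.3%, 4.81 to 30.3%), in the kinase genes Taok3 (10.45-fold in KO and 11.42-fold in WT) and Taok1 (3.67 and 10.20), the coactivator gene Wwtr1 (6.20 and 8.27) and the protocadherin gene Fat1 (2 intervals). The Notch list had 3 of 27 (11.1%, 2.35 to 29.2%). The sheddase genes Adam17 (8.75-fold in KO and 15.19-fold in WT) and Adam10 (4.49 and 9.11) held 1 interval each, and Dtx4, a ubiquitin ligase gene of the pathway, had 5.32 and 12.29 at its only site. No Notch receptor or ligand gene held an interval. The FGF and EGF list had 1 of 21, in Braf (10.19-fold in KO and 12.86-fold in WT). The apoptosis list had 4 of 21 in Apaf1 and Birc6. The cell cycle list had 3 of 39 (7.69%, 1.62 to 20.9%), in the spindle checkpoint gene Bub1b (7.79-fold in KO and 5.34-fold in WT) and Anapc1, a subunit of the anaphase-promoting complex (2 intervals).

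**Figure D5:**
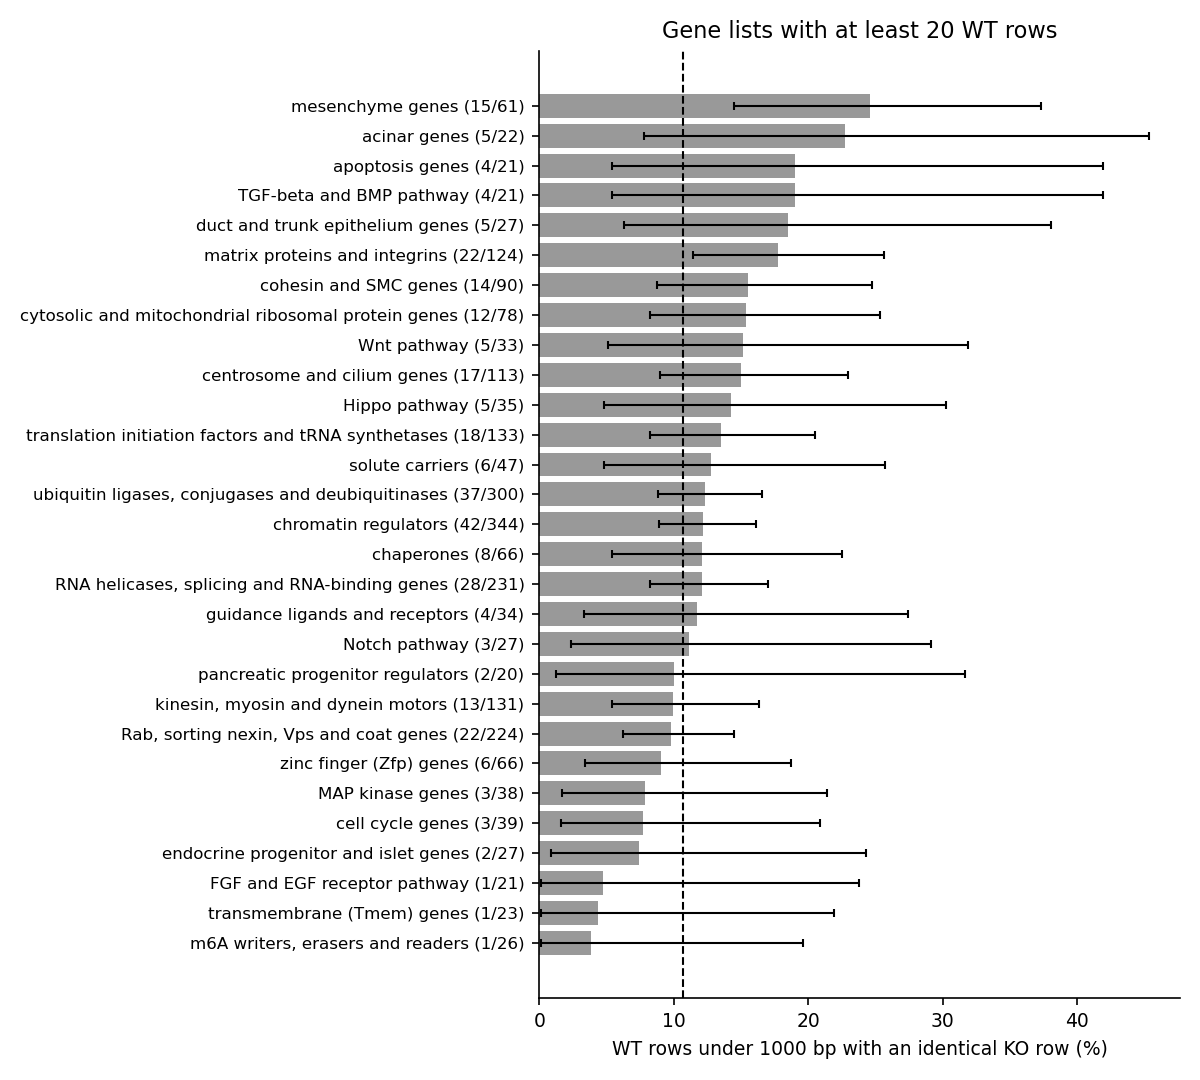
Share of WT sites under 1000 bp with an identical KO site (x axis, percent) for gene lists with at least 20 such sites, with exact binomial 95% intervals and the counts in brackets. The dashed line is the share of all sites, 10.7%, and the interval of mesenchyme genes (24.6%) and of matrix proteins and integrins (17.7%) lies to its right.

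The KEGG pathway names in the authors' tables gave a second grouping, in which 78 pathways had at least 30 genes with a WT site under 1000 bp. Of the 935 identical intervals 430 lay in a gene with any pathway name and 505 in a gene with none. The matching share of all WT sites was not computed, so these are counts only. The share of identical sites ran from 4.00% in osteoclast differentiation (2 of 50) to 18.9% in HTLV-I infection (27 of 143). In 4 pathways the exact 95% interval left out the share of all sites, all above it. Besides HTLV-I infection these were Parkinson's disease (15 of 81, 18.5%), transcriptional misregulation in cancer (18 of 99, 18.2%) and pathways in cancer (44 of 296, 14.9%). Counted by genes, 7 pathways had an interval that left out the share of all genes, and pathways in cancer and HTLV-I infection were in both sets. These names share many genes, sites of a gene are not independent, and the intervals were not adjusted for the 78 pathways. Most of the 78 had a share above that of all sites, which also counts genes with no pathway name. Among pathways nearer to the tissue's biology, the ribosome had 10 of 59 (16.9%), oxidative phosphorylation 12 of 75 (16.0%), adherens junction 16 of 102 (15.7%) and Wnt signalling 16 of 107 (15.0%). Focal adhesion had 29 of 203 (14.3%), ubiquitin mediated proteolysis 25 of 176 (14.2%), endocytosis 34 of 260 (13.1%), cell cycle 14 of 115 (12.2%), insulin signalling 11 of 93 (11.8%) and the spliceosome 13 of 159 (8.18%).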

How the data were processed

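The 4 libraries of embryonic mouse pancreas, MeRIP and input of KO and WT, were used through the authors' 2 site lists. The submitters' processing notes name cutadapt 1.9.3, HISAT2 2.0.4 and the mm10 build. Per the file headers, the deposited score is minus 10 times log10 of the caller's p-value, the deposited fold enrichment is a ratio for the peak, and the deposited false discovery rates, which reach 100, are taken to be in percent. Peak names begin with MACS; its version, duplicate handling and the making of listed intervals were not given in the sources used here; read counts are lacking, so depth is unknown. Pairing of MeRIP and input within a genotype is assumed. Scores and folds were used within a table only.

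Starts were taken as 0-based and printed 1-based. Python 3.11.15, pandas 2.3.3 and scipy 1.17.1 were used. Genes were named through a RefSeq GRCm38.p6 table, by gene identifier for 931 of 935 intervals, by transcript accession for 3 and by an older symbol for 1. The table of starts gave strands. Intervals are exact binomial (95%) and cover counting error over sites only. The matching was tested on simulated data. Members and lists were chosen with earlier results of these data known. Named were the 10 highest by fold enrichment in each table, genes with 3 or more intervals, the 3 nearest the limit on each side, the 3 shortest, and up to 6 members of each list (the 4 highest in KO where there were more). Predicted genes were passed over. The choice of other named members was made with their values known. Shares of lists were taken over genes and over sites. Alternatives were the length limit, the matching rule, limits on false discovery rate, fold enrichment and score, and the gene name. Some members and 1 list that these rules choose are not reported here.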

Additional observations from a re-analysis of the deposited data

How the results depend on the processing

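The number of identical intervals stayed within 1.5 times of its value under limits of 300 bp (782) and 500 bp (861), with no length limit (1019), with an overlap of at least 1 bp (1073) or a reciprocal overlap of at least 50% (1060) in place of identity, with a fold enrichment of at least 5 in both tables (677) and with the same gene name required (no change). Under a false discovery rate limit of 50% in both tables it was 597, 7.0% of the WT sites left, in 527 genes. With a score of at least 100 in both tables it was 140, 4.45% of the WT sites left, in 128 genes. Fewer sites enter both of these by construction. Of the 34 lists, 28 lay on the same side of the share over all by sites as by genes, and 26 of the gene shares did so under that false discovery rate limit. Without Fn1, an alternative chosen after seeing the data, the mesenchyme list had 21.2% and the matrix list 15.7%. No paired analysis was possible because each genotype had 1 library of each kind and no test was run. Without read counts, depth sets no limit that can be stated here.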
